A study of Schizosaccharomyces pombe with 3 samples.

Results

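The 7 fission yeast genes described here are phf1 (SPCC4G3.07c), its divergent neighbour psk1 (SPCC4G3.08), and the kinase genes sck1, sck2, gad8, tor1 and tor2. They were chosen by name with the array results known: the feature upstream of phf1 was selected on its measured ratio, psk1 faces it across the same gap, and the other 5 kinases belong to the TOR pathway in which Psk1 acts. Each gene has an upstream (intergenic) and a coding feature, so the genes account for 14 of the 10213 named intergenic, coding and other features of the array. Because the ratios themselves chose phf1 and psk1, the values of all 14 features are given as a description. They were part of the fit across all features, from which counts of calls are given beside the background share and no p of their own is read.

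Schizosaccharomyces pombe cells carrying Ssn6 fused to GFP were taken in mid log growth in YES, a rich medium, and crosslinked chromatin was precipitated with an antibody to GFP. Immunoprecipitated and input DNA of separate experiments were amplified, labelled with Cy5 and Cy3 and hybridised together on 3 two-colour arrays, which form 1 group and are called replicates 1, 2 and 3. Untagged cells and mock precipitations were not analysed here, so the ratios carry no control for precipitation in the absence of the tag. The scanner files call the channels A and B and tie neither to a dye, and the ratio of B to A ran opposite on replicate 2 (Pearson's r across 3960 features of -0.48 with replicate 1 and -0.54 with replicate 3, against 0.72 between replicates 1 and 3). The ratio used here has B as numerator on replicates 1 and 3 and is turned on replicate 2, where A is the numerator. According to the labels no dye swap was made, which leaves the direction unsettled, and all signs together could be the other way round. The unturned ratio, B over A on each array, is therefore given beside the results. Ratios are log2 of the integrated spot intensities, centred on the median of each array.

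Ssn6 acts with the WD-repeat proteins Tup11 and Tup12 as a corepressor that sequence-specific DNA-binding proteins bring to promoters. The TOR kinases of fission yeast work in separate complexes: Tor2 is the catalytic subunit of TORC1, which promotes growth in rich medium, and Tor1 that of TORC2, which activates the AGC kinase Gad8. Psk1 is an S6 kinase that phosphorylates ribosomal protein S6 under TORC1, Sck1 and Sck2 are related AGC kinases of nutrient signalling, and Phf1 is a PHD-finger subunit of the Lsd1 and Lsd2 demethylase complex.

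In the RefSeq annotation of build ASM294v3, phf1 lies on chromosome III from 459868 to 461914 on the plus strand and psk1 from 457709 to 459495 on the minus strand. Their transcripts start 372 bp apart, with no gene annotated between them, and their coding regions start 706 bp apart. The files give no coordinates, and which stretch of this gap each array feature covers is not given in the sources used here. The window before the phf1 transcript start is shown because both high features carry the names of the genes that share this gap, and that of sck1 because sck1 is the only other gene of the 7 whose upstream feature had a ratio on all 3 arrays. Capitals mark every match, on either strand, to the CCAAT box, the GATA factor core GATAA, the Atf1 core TGACGT, the Rst2 element CCCCTC and the heat shock pair TTCNNGAA, and overlapping matches would run together.
phf1 upstream, chrIII:459568-459867, plus strand: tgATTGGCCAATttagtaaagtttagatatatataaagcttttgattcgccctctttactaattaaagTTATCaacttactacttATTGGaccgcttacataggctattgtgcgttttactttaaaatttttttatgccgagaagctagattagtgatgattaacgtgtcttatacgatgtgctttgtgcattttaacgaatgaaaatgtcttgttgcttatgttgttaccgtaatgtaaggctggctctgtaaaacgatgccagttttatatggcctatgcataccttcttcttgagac
sck1 upstream, chrI:2404704-2405003, minus strand: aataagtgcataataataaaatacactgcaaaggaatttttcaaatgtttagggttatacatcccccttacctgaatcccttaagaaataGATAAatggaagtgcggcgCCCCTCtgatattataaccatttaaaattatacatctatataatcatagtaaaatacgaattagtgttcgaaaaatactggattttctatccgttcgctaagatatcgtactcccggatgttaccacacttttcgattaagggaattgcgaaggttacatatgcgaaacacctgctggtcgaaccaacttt
The phf1 window held 3 matches to CCAAT, which the Php complex binds. The window of psk1, which shares 228 bases with it, held the same 3 matches, and the whole gap held no others. Of the 3, 2 lie side by side on opposite strands. None of the windows of sck1, sck2, gad8, tor1 and tor2 had a match to CCAAT. The sck2 window runs past its gap of 142 bp into the annotated pik1 transcript. Among 5112 windows of 300 bases before annotated transcript starts, 41.0% held at least 1 match to CCAAT and 1.98% held 3 or more. GATAA occurred 1 time in each window but that of tor1, with the same match in those of phf1 and psk1, and in 60.6% of all windows. CCCCTC, bound by the zinc-finger factor Rst2, occurred in the sck1 window alone of the 7, and in 1.94% of all windows. TGACGT and the heat shock pair were in none of the 7 windows, against 6.03% and 9.76% of all windows. GC content was 34.0% before phf1 and 35.0% before sck1, beside a median of 32.0% over all windows. These matches describe letters of the reference and not bound sites.

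The 14 features were unevenly measured. Each was spotted 2 times per array, which gives 84 spots, and 55 of these had signal in both channels. In 17 spots the denominator channel alone was rejected by the scanner software, 12 of them on replicate 3, 5 on replicate 1 and 0 on replicate 2. The numerator of those 17 spots was above the negative-control limit, the 95th percentile of the negative-control spots, in 0 cases. Of the features, 7 had a ratio on all 3 arrays, 3 on 2 arrays, 3 on 1 array and 1, upstream of tor2, on none. Those with a ratio on all 3 arrays were the upstream features of phf1, psk1 and sck1 and the coding features of sck2, gad8, tor1 and tor2. Replicate 2 was the most complete array, with both signals at 95.5% of its feature spots, against 49.0% on replicate 1 and 37.7% on replicate 3.

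Upstream of phf1 the log2 ratio was 3.76 on replicate 1, 3.39 on replicate 2 and 2.70 on replicate 3. All arrays were high, and their mean of 3.28 ± 0.54 (SD, n = 3 arrays), or 9.72-fold, was the highest of the 1327 intergenic features measured on all 3 arrays. The next feature in rank, upstream of the iron-regulon transporter gene str3 (SPAC1F8.03c), had 3.18 ± 0.53, a gap smaller than either spread. Within each array the phf1 feature stood at percentiles 99.7, 99.8 and 97.6 of intergenic ratios. The spots of replicate 1 differed, at 2.94 and 4.58, and the higher one had an area of 17 pixels and a flag S whose meaning is not given in the sources used here. The spots of replicate 2 (3.30 and 3.47) and of replicate 3 (2.77 and 2.63) lay close together. Without spots flagged S the mean was 3.02, at rank 4 of 1294, so first place depended on such spots. The unturned ratio had a mean of 1.02 ± 3.86, since replicate 2 then stands opposite to the others.

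Upstream of psk1 the log2 ratio was 1.92, 3.43 and 2.88 on replicates 1, 2 and 3. This feature was also high on every array, with a mean of 2.75 ± 0.76 (SD, n = 3), or 6.71-fold, at rank 11 of 1327. The features on either side of it in rank, those of SPBC839.16 at 2.80 ± 0.44 and of the ferroxidase gene fio1 at 2.74 ± 0.24, differed from it by less than its spread. Its percentiles among intergenic ratios were 93.3, 99.8 and 98.2. On replicate 3 its spots gave 2.07 and 3.69, and the higher one, of 29 pixels, had the flag S. Without such spots the mean was 2.49, at rank 27 of 1294. Its unturned mean was 0.46 ± 3.40.

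The upstream features of the pair differed by 1.83 on replicate 1, by -0.05 on replicate 2 and by -0.18 on replicate 3 (phf1 minus psk1). The phf1 feature was thus well above the psk1 feature on replicate 1 and slightly below it on the others, and the mean difference of 0.53 ± 1.13 was smaller than its spread. Without spots flagged S, phf1 upstream had 2.95, 3.39 and 2.72 and psk1 upstream 1.93, 3.43 and 2.09. Of the 3 tested upstream features of the 7 genes, 2 passed the fit's threshold as enriched (limma, Benjamini-Hochberg adjusted p under 0.05), where 19.7% of tested intergenic features did. These 2 features carry the names of genes chosen on the same ratios, and nothing is read from the count. None of the 3 was depleted, against 0.904% of intergenic features. By the rank rule in the labels, a median percentile over arrays of 85 or more, 3 of the 13 features with a ratio would be listed, against 11.1% of all features. They were phf1 upstream at 99.8, psk1 upstream at 99.1, and the coding feature of psk1 at 94.2, which had a ratio on replicate 2 alone.

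**Figure D1:**
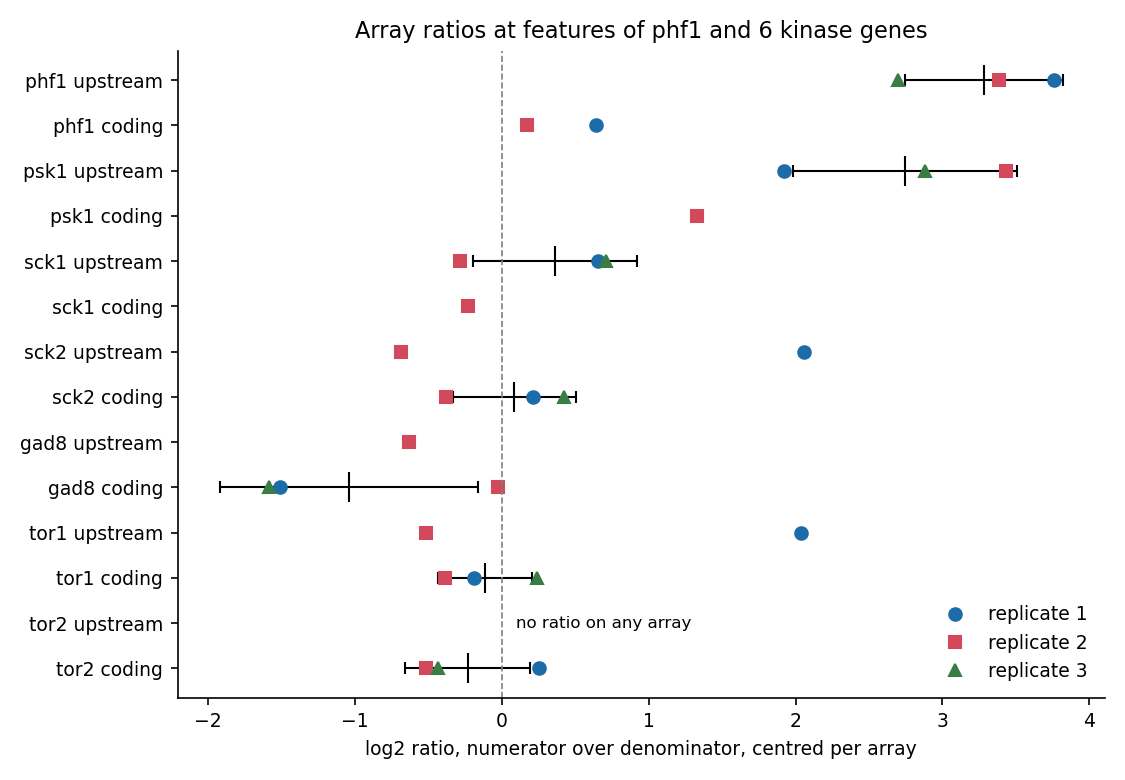
Log2 ratio of each array (x axis, centred per array) at the upstream and coding features of phf1 and the 6 kinase genes (y axis). Points are replicates, and bars show the mean ± SD where all 3 arrays gave a ratio. The points upstream of phf1 and psk1 lie between 1.92 and 3.76, whereas those upstream of sck2 and tor1 fall on either side of 0.

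The channels behind these ratios were not alike for the pair. Upstream of phf1 the numerator was 21317, 7748 and 6552 units of mean pixel intensity on the arrays in order, and the denominator was 614, 871 and 661.5. The 21317 on replicate 1 averaged spots of 4820 and 37814, the latter the 17-pixel spot flagged S. The numerator stood at percentiles 98.9, 91.9 and 85.1 of intergenic features with a ratio. The denominator stood at percentiles 40.1, 1.5 and 5.1, so that on replicates 2 and 3 a high numerator met a low denominator. Upstream of psk1 the numerator was 4311, 25372 and 18714 units, at percentiles 92.4, 99.4 and 95.3, and the denominator was 632, 2733 and 1383 units, at percentiles 42.6, 66.6 and 47.4. The psk1 feature thus had high numerators with denominators near the middle of the range. Its 18714 on replicate 3 averaged spots of 8322 and 29105, the latter the 29-pixel spot flagged S. Every spot of both features lay above the numerator's negative-control limit, which was 1959, 222.7 and 4452 units on replicates 1, 2 and 3. On replicate 3 none of the other features of the 7 genes had a spot above it, and on replicate 1 only the features upstream of sck2 and tor1 and the coding feature of tor2 did, so the other ratios on those arrays are not exact. The denominator's limit on replicate 2 was 1026 units, and the phf1 upstream spots there had 1034 and 708. On replicate 3 the phf1 upstream denominators, 610 and 713, were below their local background of 1012, and its subtraction left no ratio. The phf1 upstream ratios on replicates 2 and 3 are therefore not exact either.

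**Figure D2:**
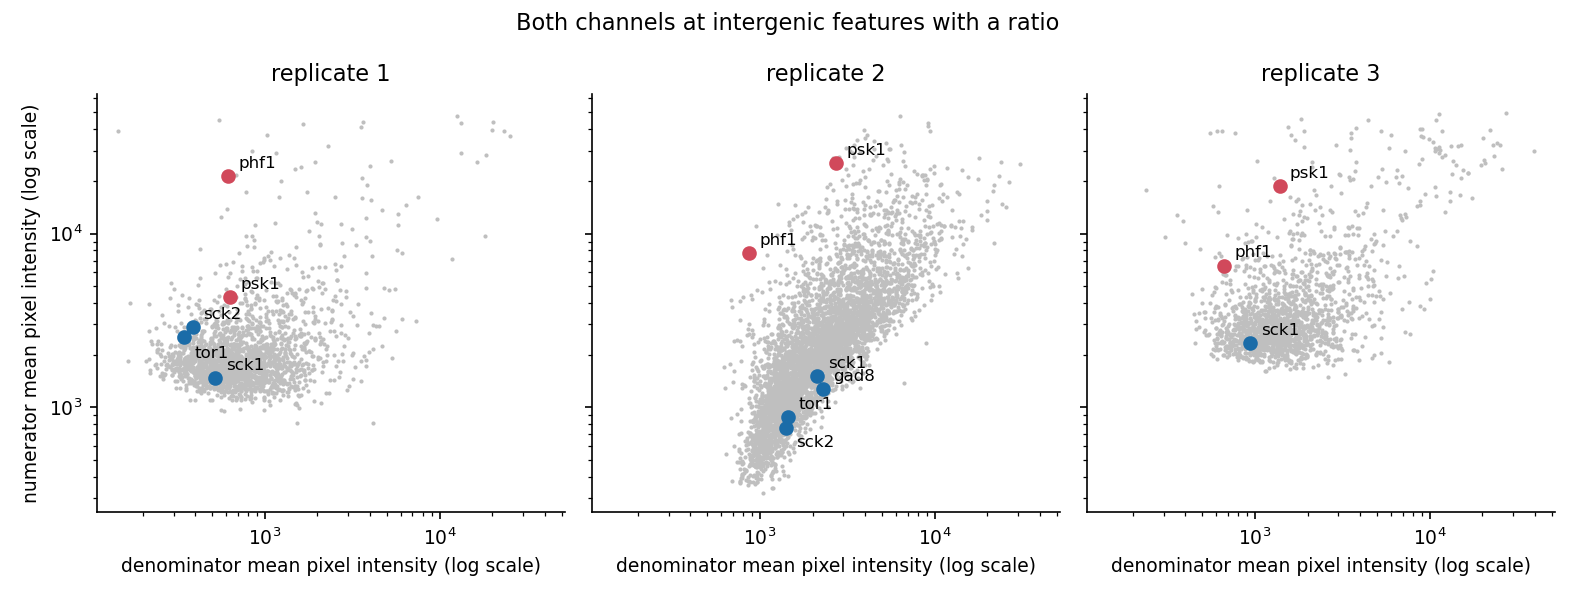
Mean pixel intensity of the denominator (x axis, log scale) and the numerator (y axis, log scale) at intergenic features with a ratio, 1 panel per array. Grey dots are all such features, red dots are upstream of phf1 and psk1, and blue dots are upstream of the other kinase genes. On replicate 2 the phf1 feature lies at the left edge, at a denominator of 871, and the psk1 feature lies higher, at a numerator of 25372.

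The coding features beside the gap had lower ratios. Over the coding region of phf1 the log2 ratio was 0.64 on replicate 1 and 0.17 on replicate 2, with no ratio on replicate 3. This was 3.12 and 3.21 below the upstream feature on the same arrays. Over the coding region of psk1 a ratio was obtained on replicate 2 alone, at 1.33, percentile 97.0 of coding features on that array and 2.10 below the upstream feature. Unturned, this single value is -1.33.

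The surrounding genes had lower ratios than the gap. Of the 12 annotated genes within 6 positions of the pair, 11 had features on the array, 21 in all, and 3 of these were measured on all 3 arrays with 0 called in either direction by limma, and 0 at an unadjusted p under 0.05. They were upstream of coq5, which encodes a methyltransferase of ubiquinone synthesis, at 0.63 ± 0.13 (limma adjusted p = 0.162), upstream of cue1 at 0.20 ± 0.54 and over the coding region of nur1 at -0.02 ± 0.42. On replicate 2, which gave a ratio at all 21, the values ran from -1.05 to 1.20 with a median of -0.09. The highest was the coding feature of gyp3, which encodes a GTPase-activating protein and lies next to psk1, and the lowest was the upstream feature of the same gene. On the phf1 side, the mitochondrial ribosomal protein gene mrpl4 had 0.73 upstream and 0.64 over its coding region on replicate 2. The coding features of psk1 and gyp3 were thus the highest of the locus on replicate 2 after the pair's upstream features, and the other arrays gave no ratio for either.

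**Figure D3:**
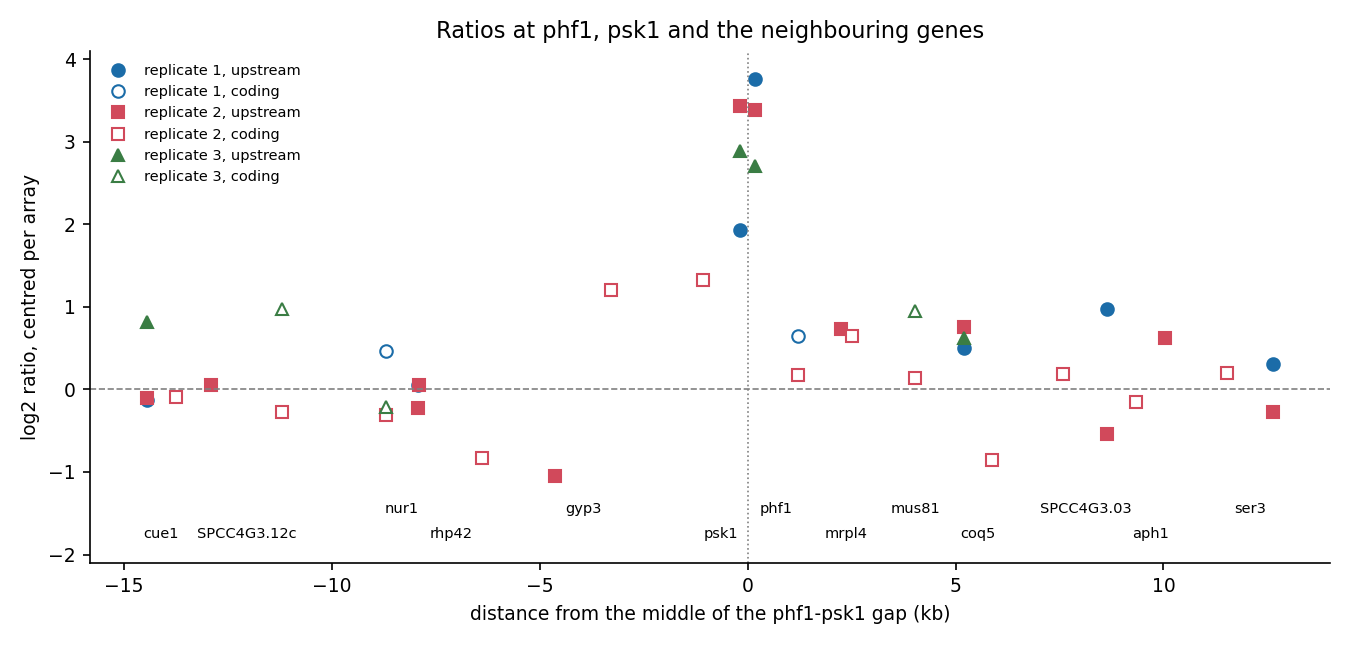
Log2 ratio (y axis, centred per array) at features of phf1, psk1 and 11 neighbouring genes against distance from the middle of the gap between phf1 and psk1 (x axis, kb). Upstream features (filled) are drawn at the annotated transcript start and coding features (open) at the middle of the gene, since the probes' own positions were not used here. The pair's upstream points lie between 1.92 and 3.76, and the other points do not exceed 1.33.

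The S6-type kinase genes other than psk1 had no feature that was high on every array. Upstream of sck1, at a gap of 1942 bp shared with SPAC1B9.03c, the log2 ratio was 0.66, -0.28 and 0.71 on replicates 1, 2 and 3. On replicates 1 and 3 the value came from 1 spot each. The mean of 0.36 ± 0.56 stood at rank 669 of 1327, near the median of 0.36 over all tested intergenic features, and it was below that of phf1 upstream by 3.10, 3.67 and 1.99 on the same arrays. Over the coding region of sck1 there was a ratio on replicate 2 alone, at -0.23. The unturned upstream mean was 0.55 ± 0.23.

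Upstream of sck2, which lies 142 bp from the end of the phosphatidylinositol kinase gene pik1, the log2 ratio was 2.06 on replicate 1 and -0.68 on replicate 2. These arrays disagreed in sign, at percentiles 94.98 and 7.48 of intergenic features. The value on replicate 1 came from 1 spot with a numerator of 2888 and a denominator of 385, and the denominator stood at percentile 10.08. On replicate 3 both spots lost the denominator. Unturned, the arrays have the same sign, with 2.06 on replicate 1 and a mean of 1.37. Over the coding region of sck2 the ratio was 0.21, -0.38 and 0.42, a mean of 0.08 ± 0.42 that lies within its spread of 0.

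At gad8, the TORC2-activated AGC kinase gene, the upstream feature had a ratio on replicate 2 alone, at -0.63, percentile 9.2. The coding feature had -1.51, -0.03 and -1.59, so replicates 1 and 3 were low and replicate 2 was near 0. Its mean of -1.04 ± 0.88, or 2.06-fold lower, was the lowest of the 7 genes' features on all 3 arrays, at rank 2294 of 2596 coding features. The numerator was 1033 units in the 1 spot used on replicate 1 and 1765 and 2213 in the spots of replicate 3, all below the negative-control limit. The mean is therefore not exact. Its unturned value was -1.02 ± 0.91. Of the 4 coding features of the 7 genes tested, 0 passed as enriched and 0 as depleted, where 2.43% and 7.86% of tested coding features did.

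The TOR kinase genes themselves were near 0 over their coding regions. The coding feature of tor1 had -0.19, -0.39 and 0.24, with a mean of -0.11 ± 0.32, and that of tor2 had 0.26, -0.52 and -0.44, with a mean of -0.23 ± 0.42. On replicate 2 the tor1 coding spots differed, at -0.88 from 33 pixels and 0.10 from 75 pixels. Both genes had values on either side of 0, near the median of -0.28 over all tested coding features. Upstream of tor1, in a gap of 304 bp shared with the divergent gene gpi1, the ratio was 2.03 on replicate 1, from 1 spot, and -0.52 on replicate 2. As upstream of sck2, these arrays disagreed in sign, at percentiles 94.7 and 13.4, and the denominator of replicate 1 stood at percentile 6.6. Upstream of tor1 the unturned mean was 1.28. Upstream of tor2, in a gap of 319 bp shared with cwf11, no array gave a ratio: the denominator or both channels were rejected at every spot of replicates 1 and 3, and the numerator at both spots of replicate 2.

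Among the features measured on all 3 arrays the order of means was phf1 upstream (3.28), psk1 upstream (2.75), sck1 upstream (0.36), sck2 coding (0.08), tor1 coding (-0.11), tor2 coding (-0.23) and gad8 coding (-1.04). Neighbours in this order overlapped in their array values except psk1 and sck1, whose lowest and highest values were 1.92 and 0.71. On replicate 2, where 6 upstream features had a ratio, those of phf1 and psk1 were above 3 and the other 4 lay between -0.68 and -0.28. Of the 7 coding features on that array, 5 were below 0, and those of psk1 and phf1 were above it.

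The genes next to the kinase genes other than psk1 gave 15 features, of which 4 were measured on all 3 arrays and 1 was called. The coding feature of swi1, a replication fork protection gene downstream of tor2, was depleted at -1.48 ± 0.66 (limma adjusted p = 0.0174), where 7.86% of tested coding features were. It did not pass without replicate 3 (limma adjusted p = 0.188) or with local background subtracted (adjusted p = 0.093). Nor did it pass unturned (adjusted p = 0.782) or in the deposited table (adjusted p = 0.789). Upstream of pik1, beside sck2, the ratio was 3.069, -0.02 and 0.91, a mean of 1.32 ± 1.58 that did not pass (limma adjusted p = 0.102). The values of replicates 1 and 3 came from 1 spot each, so this feature is weakly measured. The pik1 upstream feature passed with median pixels (2.61, limma adjusted p = 8.4e-07) and with normexp (3.75, adjusted p = 0.0333). It also passed without replicate 2 (1.99, adjusted p = 0.0404), and was 0.45 without replicate 1 (adjusted p = 0.669). The coding feature of hva22, beside tor1, had 5.86 on replicate 1 and -0.13 and -0.74 on the others, and that of cwf11, beside tor2, had a mean of -0.12 ± 0.62. Neither passed, although hva22 did with median pixels (1.57, limma adjusted p = 0.00539) and was -0.44 without replicate 1. The hva22 value on replicate 1 came from 1 spot, with a denominator at percentile 1.4 of coding features. Without spots flagged S, pik1 upstream and hva22 coding no longer had a ratio on every array.

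Other genes of the pathway were read from 6 lists drawn from general knowledge of TORC1, TORC2, their inputs and outputs, AGC kinases and the partners of Phf1. Of 69 listed genes that are not among the 7, 64 had features. Upstream, 60 features were present and 20 were measured on all 3 arrays. By limma 2 of the 20 were enriched and 0 depleted (3 and 0 at an unadjusted p under 0.05), where 19.7% and 0.904% of tested intergenic features were. The median of the tested means was 0.17, below the 0.36 of all tested intergenic features. The highest was upstream of the AGC kinase gene ppk33, at 2.37, 2.41 and 2.24 on replicates 1, 2 and 3, a mean of 2.34 ± 0.09 (limma adjusted p = 0.00128) in a gap of 73 bp shared with hmg1. The arrays differed little there, and the coding feature of ppk33 had 1.42 on replicate 2 alone. Upstream of igo1, which encodes an endosulfine that inhibits a PP2A phosphatase, the ratio was 1.97, 2.18 and 0.71, a mean of 1.62 ± 0.80 (adjusted p = 0.0152). This feature did not pass without replicate 1 (adjusted p = 0.058) or without replicate 2 (adjusted p = 0.0506). The unturned means of ppk33 and igo1 were 0.73 (adjusted p = 0.899) and 0.17 (adjusted p = 0.970). The third of the tested upstream features was that of mei2, the meiotic RNA-binding protein gene, at 0.82 ± 0.49 (adjusted p = 0.104, or 0.0482 with loess). The lowest were those of the autophagy kinase gene atg1 (-0.76 ± 0.84), sea3 (-0.48 ± 0.13) and tsc2, the inhibitor of TORC1 (-0.14 ± 0.23), none of which passed, though atg1 did without replicate 2 (-1.21, limma adjusted p = 0.0378).

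Over coding regions the lists held 66 features, of which 42 were measured on all 3 arrays. Of the 42, 0 were enriched and 5 depleted (1 and 10 at an unadjusted p under 0.05), where 2.43% and 7.86% of tested coding features were. Their median was -0.35, beside -0.28 for all tested coding features. The depleted ones were atg13, a partner of the autophagy kinase (-1.70 ± 1.24), the phosphatase-binding gene tap42 (-1.55 ± 0.67), the septation kinase gene sid2 (-1.40 ± 0.80), the forkhead factor gene fhl1 (-1.21 ± 0.57) and the kinase gene gcn2 of the amino acid starvation response (-1.03 ± 0.29), with limma adjusted p between 0.0148 and 0.0441. On replicates 1 and 3 no spot of these 5 had a numerator above the negative-control limit, so their means are not exact. The gcn2 feature did not pass with loess (limma adjusted p = 0.0619), normexp (adjusted p = 0.0503) or median pixels (adjusted p = 0.0566). Over upstream and coding features together, the lists had 0 depleted features without replicate 3, 1 without replicate 1, and 9 without replicate 2, among them the upstream feature of atg1. The highest coding means were those of ksg1, whose product phosphorylates AGC kinases (1.33 ± 2.34), igo1 (0.92 ± 0.71) and rps601, a gene for ribosomal protein S6, the substrate of Psk1 (0.46 ± 0.71), and none passed on these ratios. The ksg1 feature passed with normexp (2.77, limma adjusted p = 0.0286) and median pixels (2.01, adjusted p = 0.000146), and igo1 with normexp (2.08, adjusted p = 0.0273), loess (1.02, adjusted p = 0.0481) and separate centring of the classes (1.13, adjusted p = 0.0401). The value of ksg1 rested on replicate 3, with 4.03 from 1 spot against 0.12, also from 1 spot, and -0.17. By list, ppk33 was 1 of 5 tested upstream features of the AGC kinases and igo1 1 of 8 of the genes downstream of TOR, and the 6 tested upstream features of the genes that feed into TOR had 0 called and 0 at an unadjusted p under 0.05. Of the TORC1 subunit genes 1 upstream and 3 coding features were tested, of the TORC2 subunit genes 0 and 2, and of the genes for Phf1's partners 0 and 2, with 0 called and 0 at an unadjusted p under 0.05. Among those partners the coding features of lsd2 and phf2 had 0.10 ± 0.20 and -0.27 ± 0.79, and lsd1 had a ratio on replicate 2 alone, at 0.11.

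**Figure D4:**
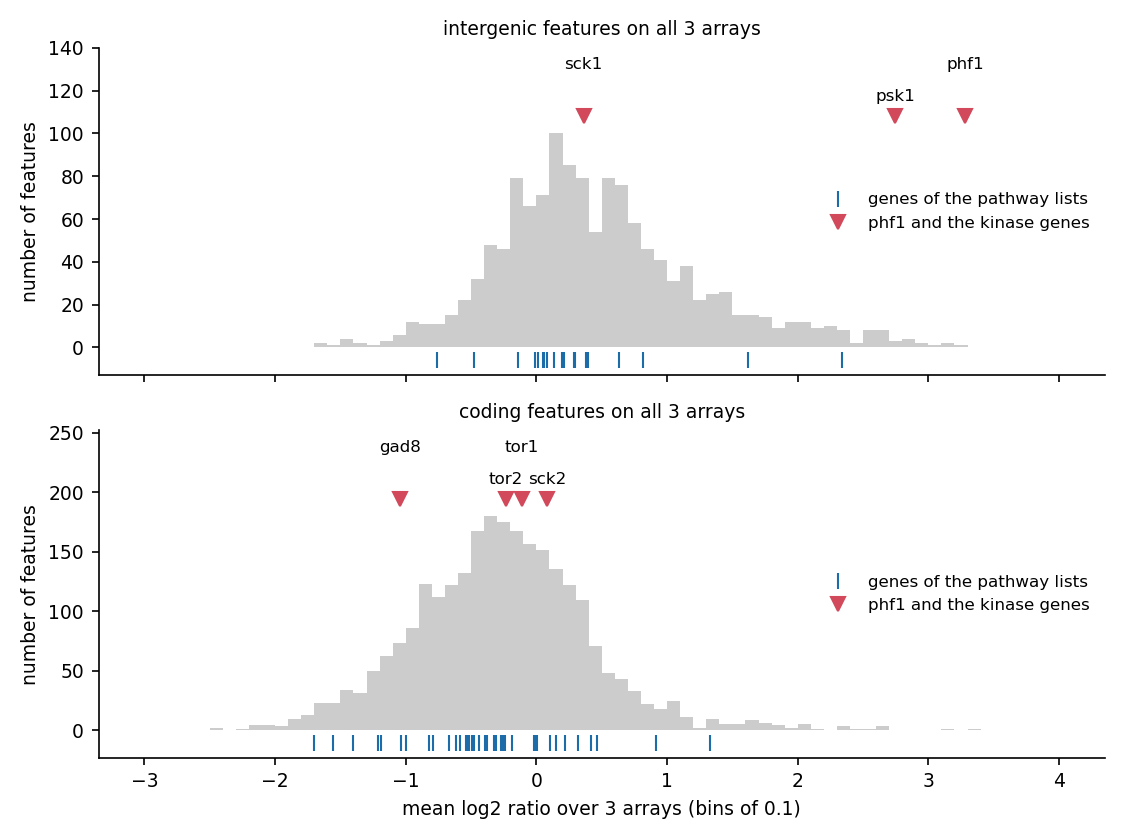
Histograms of the mean log2 ratio over 3 arrays (x axis, bins of 0.1) of all tested intergenic and coding features (y axis, number of features). Red triangles mark phf1 and the kinase genes, and blue ticks mark the other genes of the pathway lists. Upstream of phf1 and psk1 the means of 3.28 and 2.75 lie in the upper tail, and the coding mean of gad8, -1.04, lies in the lower part.

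The tested features most like the phf1 upstream feature were sought by Euclidean distance between the 3 array values. The nearest was the coding feature of SPBC887.16 at a distance of 0.46, with 3.54, 3.60 and 3.05 on replicates 1, 2 and 3. The noncoding RNA gene prt2 (SPBC8E4.02c) followed at 0.87, then the upstream features of ef1-b (0.96), of gto1 (0.99) and of the ABC transporter gene abc3 (1.03). Nearest to the psk1 upstream feature were the upstream feature of SPAC1F8.08 (0.38), the coding feature of SPAPB1A10.13 (0.44), the upstream feature of the pyruvate decarboxylase gene pdc101 (0.49), the long intergenic feature at SPAC1F8.08 (0.53) and the upstream feature of the cation ATPase gene cta3 (0.53). The phf1 and psk1 upstream features were 1.84 apart, mostly through replicate 1, and 35 other features lay nearer to phf1 than psk1 did. These distances describe array values only, which share the arrays and their depth of signal.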

How the data were processed

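The authors scanned 3 two-colour arrays and quantified them with TIGR Spotfinder, per the labels' protocols, and per the file headers the deposited spot intensity values are whole numbers per channel with flags. The version, the background handling and a genome build are not given in the sources used here. The deposited series table holds log10 values, median-normalised by the authors in GeneSpring per the labels' protocols. Across spots these log10 values correlated at 1.00, 0.95 and 1.00 (replicates 1, 2 and 3) with the log of the numerator channel less its background, and at 0.39, 0.61 and 0.53 with the log ratio. They therefore follow 1 channel rather than the ratio, and their column medians were 0.01, -0.04 and 0.02.

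From the intensities, log2 ratios were formed at spots with signal in both channels, centred on each array's median and averaged per feature. B was the numerator on replicates 1 and 3, A on replicate 2. The mean ratio of the 3960 features with values on every array was set against 0 in limma (version 3.58.1 under R 4.3.3, a two-sided test by lmFit and eBayes, with p adjusted over all features after Benjamini and Hochberg and a threshold of 0.05), which called 327 enriched and 222 depleted. The script was tested on simulated data. The labels speak of separate experiments but tie none to an array, so p-values measure the spread between these arrays, whose number limits the precision. The genes, lists and the direction of replicate 2 were chosen with earlier results of these data known. Names were matched to the annotation of ASM294v3 for 9408 of 10119 intergenic and coding names (93.0%). Names with the prefix IGR were read as upstream of the gene they name, which the files do not state.

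Named are all features of the 7 genes, their neighbours (6 genes on each side of phf1 and psk1, 1 on each side of the others), every called list feature with the 3 highest and 3 lowest per kind, and the 5 features nearest to each upstream feature of the pair. Alternatives were other backgrounds (subtraction, normexp with offset 50), loess, median pixels, centring by kind, the deposited table, features on 2 or more arrays, spots above negative controls, B over A on every array, and leaving out each array.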

Additional observations from a re-analysis of the deposited data

How the results depend on the processing

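The features upstream of phf1 and psk1 kept a mean above 0 under all 13 alternatives, but the size depended on the settings. The sign is no support for the pair, since the ratios that chose it were high on every array. Unturned, replicates 1 and 3 outweighed replicate 2, which had -3.39 for phf1 and -3.43 for psk1. For phf1 upstream the mean of 3.28 became 1.02 unturned (B over A on every array), 4.69 with local background subtracted (on 2 arrays), 5.04 with normexp and 2.18 in the deposited table. That table follows the numerator channel rather than the ratio, so its values here and below are another measure. For psk1 upstream 2.75 became 0.46 unturned and 3.64 with normexp. Without 1 array the means ran from 3.04 to 3.57 for phf1 and from 2.40 to 3.16 for psk1. Where both kept all 3 arrays, phf1 upstream ranked between 1 and 66 and psk1 upstream between 11 and 295 among intergenic features. The lowest ranks came from the deposited table, at 66 of 3149 for phf1, and from the unturned ratio, at 295 of 1327 for psk1. Ranks are not alike between settings, since with spots above negative controls only 289 intergenic features were ranked. Leaving out spots flagged S was chosen after seeing the data.

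Over all features the counts of 327 enriched and 222 depleted became 0 and 0 unturned (138 at an unadjusted p under 0.05) and 0 and 0 in the deposited table (597 at an unadjusted p under 0.05), both by limma. They became 85 and 8 with local background subtracted, and 120 and 22 with spots above negative controls, which tests fewer features. Median pixels gave 363 depleted. Without 1 array the counts ran from 209 to 331 enriched and from 9 to 548 depleted, the lowest without replicate 3 and the highest without replicate 2. Of the 327 enriched features 134 were shared without replicate 3, 212 without replicate 1 and 259 without replicate 2.

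Among the pathway lists the 2 enriched features became 0 unturned and in the deposited table, 1 with local background subtracted and with spots above negative controls, and 4 with normexp and with loess, and ran from 1 to 2 without 1 array. The 5 depleted ones became 0 unturned, in the deposited table, with local background subtracted and with spots above negative controls, 3 with intergenic and coding features centred separately, and ran from 0 to 9 without 1 array. The count of 0 called among the neighbours of phf1 and psk1 held under all 13 alternatives. It says little, since 3 of their 21 features were tested on the ratios used here. In the simulated data the fit called 8.96% of features shifted by a log2 of 1.

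Signs that turned belonged to features that had not passed, except swi1 coding (0.44 in the deposited table). Upstream of tsc2 the mean became 0.12 unturned, 0.36 with background subtracted, 0.15 with normexp and 0.052 with median pixels. Unturned, igo1 coding became -0.076, mei2 upstream -0.079, nur1 coding 0.19 and cwf11 coding 0.42. In the deposited table rps601 coding became -0.45, atg1 upstream 1.13 and igo1 coding -0.29. With classes centred separately cue1 upstream became -0.17, nur1 coding 0.19 and cwf11 coding 0.095. Nur1 coding became 0.11 with background subtracted, and cwf11 coding 0.31 with loess. Without 1 array, ksg1 coding ran from -0.026 to 2.07, cue1 upstream from -0.11 to 0.36, nur1 coding from -0.26 to 0.13, hva22 coding from -0.44 to 2.87 and cwf11 coding from -0.38 to 0.23. The causes were not tested. No paired analysis was possible because the arrays form 1 group.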
